A study of Homo sapiens with 4 samples.

Results

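The genes described here encode subunits of γ-secretase: PSEN2, NCSTN, APH1A, APH1B and PSENEN. They were picked by gene symbol and by no cut on a measured value, though earlier results of these data were known. They are 5 of the 36601 genes listed in both count matrices. All 5 were counted in every culture and passed the filter on low counts, which left 15057 genes to be tested. γ-Secretase is an intramembrane aspartyl protease that cuts the stubs of membrane proteins within the lipid bilayer after their ectodomains have been shed. A presenilin such as PSEN2 carries the catalytic aspartates, nicastrin (NCSTN) receives the substrate, an APH1 protein holds the complex together and PEN-2 (PSENEN) triggers the cut that activates presenilin. In microglia, the resident macrophages of the brain, its substrates include Notch receptors, the amyloid precursor protein and the receptors TREM2 and CSF1R.

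The cells were microglia-like cells grown from H9, a human embryonic stem cell line, through monocyte-like cells that were then kept for 7 days in TIC medium, a serum-free medium with TGF-β, IL-34 and cholesterol. The 4 conditions had 3 cultures each. Ctrl received DMSO and PBS, Sema received 2 µM semagacestat for 22 h with PBS, LPS received DMSO and then 200 ng/mL lipopolysaccharide (LPS) for the last 6 h, and SemaLPS received both agents on the same schedule. Semagacestat is a small-molecule inhibitor of γ-secretase, and LPS is a bacterial cell wall component that activates macrophages through TLR4. Every culture was harvested with 5 µM actinomycin D, a blocker of transcription, and was marked with its own hashtag antibody before all 12 were pooled and split into 2 droplet libraries. All cultures came from the same cell line, so the spread between them is not a spread between donors. The labels call the cultures biological replicates and do not say whether a culture number marks a shared differentiation or day.

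After cells with several hashtags, fewer than 1000 genes or over 10% mitochondrial counts were removed, 14840 cells remained, between 1054 and 1641 per culture. They held between 30028112 and 51062467 counted transcript molecules (UMIs) per culture, with a median per cell between 27310 and 31358.5. Both libraries held cells of every culture, and 10 barcodes occurred among the kept cells of both, 1 of them in the same culture. All 13 fixed microglia and macrophage markers were detected in each culture, with a summed level between 7260 and 8682 CPM (a gene's UMIs scaled to the same total in every culture). The 3 erythroid markers were at 0 in all cultures, and the 3 megakaryocyte markers summed to at most 0.124 CPM. Several marker lists moved with LPS: the microglia and macrophage markers summed to 7964 to 8422 CPM in Ctrl and 7260 to 7684 in LPS. The 7 monocyte markers summed to 437 to 505 CPM in Ctrl and 1360 to 1410 in LPS, led by S100A9. The 4 endothelial markers, nearly all PECAM1, summed to 78.0 to 98.6 CPM in Ctrl and 34.4 to 47.7 in LPS. The 4 dendritic markers, nearly all CD1C, summed to 27.7 to 37.3 CPM in Ctrl and 12.6 to 18.9 in LPS. Fibroblast markers summed to 28.0 CPM in Ctrl-2 and to at most 6.16 in any other culture. The part of these in the comparisons below was not tested, except that results without Ctrl-2 are given where a call was lost. Of 7 tested Notch target genes, HES1 was the 1 that passed in Sema against Ctrl, and 6 did not. Named because it passed, HES1 is no independent check of the inhibitor. Its level averaged 3.00 ± 0.231 CPM (SD, n = 3) in Ctrl after TMM scaling, which evens out differences in composition between cultures, and 1.58 ± 0.171 in Sema, and edgeR's quasi-likelihood test gave a log2 fold change of −0.92 (adjusted p = 0.048, or 0.0647 by library size alone and 0.00209 with the culture number as a block).

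The genes lie on 3 chromosomes of the GRCh38 build, in the GENCODE annotation. PSEN2 is at chr1:226870184-226896105 and NCSTN at chr1:160343272-160358952, both on the plus strand. APH1A is at chr1:150265399-150269580 on the minus strand, APH1B at chr15:63276018-63309126 on the plus strand and PSENEN at chr19:35745114-35747519 on the plus strand. All are protein-coding. The assay counts molecules at their 3′ ends. For 4 of the genes no stretch of 50 bases within the last 500 bases of a transcript recurred in another annotated transcript. For PSENEN, 13.9% of such stretches (155 of 1116) also occurred in AD000671.1, an overlapping gene model on the same strand that is not among the genes of the matrices, and the share of PSENEN UMIs that fall in them was not measured. On the opposite strand APH1A overlaps C1orf54 by 1381 bases and NCSTN overlaps COPA by 129. PSENEN there overlaps the antisense gene AD000671.3 by 463 bases and U2AF1L4 by 332, both in the matrices. It also overlaps AD000671.2, which is not in the matrices, by 319, and no source used here states how the counting treated strand.

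Sequences upstream of the starts are shown because LPS is known to activate NF-κB and other stimulus-dependent factors. They come from RefSeq (GRCh38.p14), which matched 4 of the 5 genes (not APH1B), and 250 bases before each RefSeq start were searched on both strands. Capitals mark the motif, and each window is read 5′ to 3′ on the strand of its gene. The RefSeq starts lie inside the GENCODE spans above.
PSEN2, NF-κB letters, chr1:226870435-226870464: ttccgacgtcGGGATGACCCtgtcatccac
NCSTN, ETS letters, chr1:160343255-160343284: tcccgcggtttCCGGAAGcgcctggaaaca
NCSTN, ETS letters reversed, chr1:160343278-160343307: ggaaacacgaaCTTCCGGtctcttaggctc
APH1A, ETS letters reversed, chr1:150269057-150269086: tctccattggcCTTCCGGgggtggggatta
PSENEN, NRF1 letters, chr19:35745563-35745592: tcttttaacaGCGCATGCGtgcagtgttgc
The NF-κB letters were in 22.6% of 35116 RefSeq promoters, the ETS letters (CCGGAAG) in 8.52% and the NRF1 letters (GCGCATGCG) in 1.64%. No window held the AP-1 letters (TGANTCA, 6.57% of promoters) or the ISRE letters (3.02%). A GC box (GGGCGG, 42.6%) was in PSEN2 and APH1A and a CCAAT box (CCAAT, 32% of promoters) in APH1A, where 1 of the CCAAT matches lies in the printed window. These matches describe letters only.

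Over the 12 cultures, APH1A averaged 73.3 CPM, PSENEN 70.4, NCSTN 37.2, APH1B 20.4 and PSEN2 9.40. Each molecule was counted at its 3′ end, so these levels were not divided by transcript length, and how efficiently each 3′ end was captured was not measured. The order of the genes was the same in all 4 condition means, but the top pair did not differ beyond its spread: APH1A ranged from 66.7 to 79.2 CPM over the cultures and PSENEN from 63.8 to 79.6. The ranges of NCSTN (32.7 to 40.5), APH1B (18.1 to 23.1) and PSEN2 (6.82 to 11.4) did not overlap each other. PSEN2, the catalytic subunit, thus had the fewest counts of the 5, with 4188 UMIs in all against 32818 for APH1A. Among tested genes its level stood at percentile 49.4 and that of APH1A at percentile 88.2.

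**Figure D1:**
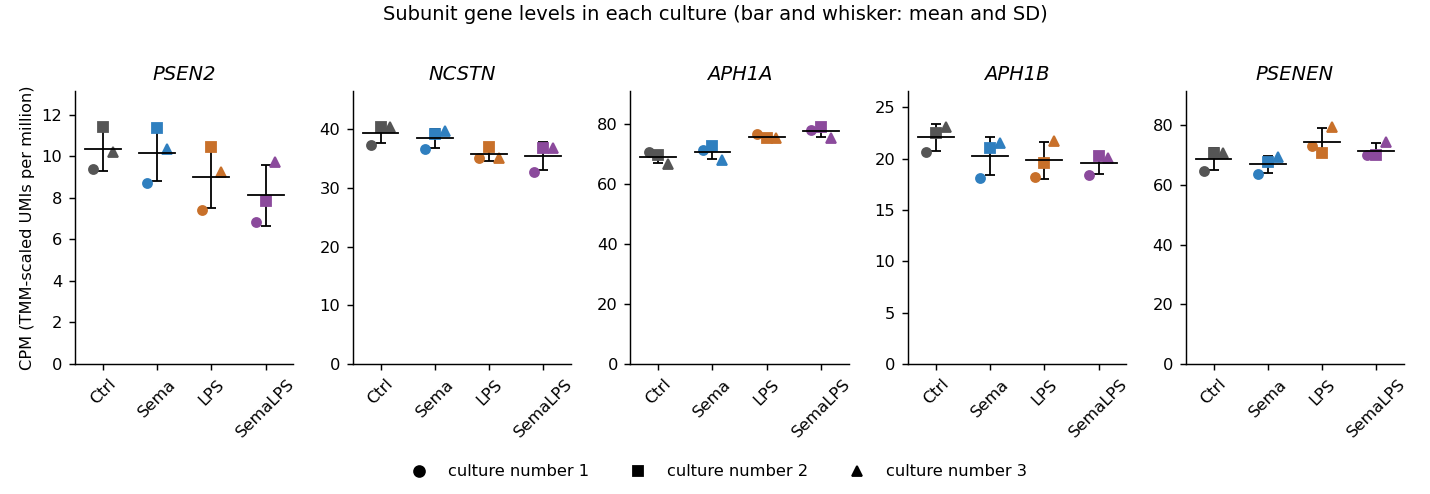
CPM of the 5 genes after TMM scaling (1 panel each, axis from 0) in each culture, by condition on the horizontal axis and by culture number as the symbol, with the mean and SD. On this scale, though not by library size alone, APH1A sits higher in all LPS-treated cultures (75.4 to 79.2) than in Ctrl and Sema (66.7 to 72.6), while PSEN2 and APH1B spread by culture number as much as by condition.

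Semagacestat was compared with DMSO first without LPS, which asks whether blocking the enzyme changes the transcripts of its own subunits. None of the 5 genes passed the threshold in Sema against Ctrl, where 0.0133% of all tested genes (2 of 15057) did. At an unadjusted p under 0.05 there were 1087 genes, and DESeq2's Wald test called 15 genes, none of them a subunit.

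PSEN2 was at 9.37, 11.4 and 10.2 CPM in Ctrl cultures 1 to 3 and at 8.70, 11.3 and 10.4 in the Sema cultures. NCSTN was at 37.3, 40.3 and 40.5 CPM in Ctrl and at 36.6, 39.1 and 39.6 in Sema. Both pairs of ranges overlapped, with culture 1 the lowest on either side. APH1A was at 70.7, 69.7 and 66.7 CPM in Ctrl and at 71.3, 72.6 and 68.0 in Sema. APH1B was at 20.6, 22.5 and 23.1 CPM in Ctrl and at 18.1, 21.0 and 21.5 in Sema. Sema was thus the higher of each same-numbered pair for APH1A and the lower for APH1B, as it was for NCSTN and PSENEN, while PSEN2 was lower in 2 of 3. What share of all genes had the same direction in every pair was not measured, so this is not read as particular to these genes. PSENEN was at 64.5, 70.7 and 70.7 CPM in Ctrl and at 63.8, 67.8 and 69.2 in Sema.

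The fitted log2 fold changes of Sema against Ctrl bound how far the genes could have moved. APH1A had 0.03 with a 95% interval from −0.05 to 0.12, NCSTN −0.03 (−0.15 to 0.09), PSENEN −0.04 (−0.15 to 0.08), APH1B −0.12 (−0.29 to 0.05) and PSEN2 −0.03 (−0.33 to 0.28). The interval is widest for PSEN2, the gene with the fewest UMIs. APH1B had the lowest adjusted p of the 5 in edgeR's test (0.769). With the culture number as a block it fell to 0.155 at a log2 fold change of −0.13, when 3.42% of all genes were called and again none of the 5.

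Under LPS, where SemaLPS was compared with LPS, none of the 5 genes passed either, against 0.0133% of all genes (2 of 15057), with 847 genes at an unadjusted p under 0.05 and 10 called by DESeq2, none of them a subunit. The replicate block called 2.07% of all genes and none of the 5. PSEN2 was at 7.41, 10.4 and 9.22 CPM in LPS cultures 1 to 3 and at 6.82, 7.84 and 9.70 in SemaLPS, a log2 fold change of −0.15 (95% interval −0.47 to 0.16). APH1A was at 76.7, 75.4 and 75.4 CPM in LPS and at 78.1, 79.2 and 75.5 in SemaLPS, a log2 fold change of 0.03 (−0.05 to 0.11). The groups overlapped for both genes. NCSTN (−0.01, −0.13 to 0.11), APH1B (−0.02, −0.19 to 0.15) and PSENEN (−0.06, −0.18 to 0.05) had smaller or similar differences. Within same-numbered pairs, APH1A was higher and PSENEN lower in SemaLPS in 3 of 3, and the other genes had no common direction. Here too the share of all genes with the same direction in every pair was not measured.

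Averaged over both LPS levels, the inhibitor's effect ranged from −0.09 (PSEN2) to 0.03 (APH1A) on the log2 scale. No subunit gene passed, against 0.0531% of all genes (8 of 15057, with 1436 at an unadjusted p under 0.05 and 45 called by DESeq2). The block called 6.99% of all genes and none of the 5. The interaction of inhibitor and LPS passed for 0% of all genes, with 551 at an unadjusted p under 0.05 and 1 called by DESeq2, and for 0.0664% with the block, which again held none of the 5. Its estimates ran from −0.13 (PSEN2) to 0.11 (APH1B), with the interval of APH1B reaching from −0.13 to 0.35. Read by overlap instead, no subunit gene had CPM values apart between Sema and Ctrl (13.4% of all genes did) or between SemaLPS and LPS (9.42%).

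LPS was compared with Ctrl to ask how an inflammatory stimulus moves the same genes, and here NCSTN fell by 0.14 on the log2 scale and APH1A rose by 0.14 after TMM scaling but not by library size alone. LPS changed most of the transcriptome: 59.2% of all tested genes (8909) passed. The 2 of 5 subunit genes that passed were no larger a share than that. The direction of small changes depends on the scale, because TMM factors lay between 1.05 and 1.09 in the cultures without LPS and between 0.918 and 0.951 in those with it. By library size alone the median log2 fold change of all genes was −0.22 rather than −0.02, and 2460 genes rose and 7014 fell rather than 4566 and 4343. All fold changes below are relative to TMM scaling unless stated.

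NCSTN, the subunit that receives substrates, was at 37.3, 40.3 and 40.5 CPM in Ctrl and at 35.1, 37.0 and 35.0 in LPS. Every LPS culture lay below every Ctrl culture. The log2 fold change was −0.14 (SE 0.0554, edgeR adjusted p = 0.0419), and −0.35 by library size alone (adjusted p = 8.78e-05), so the direction was the same on both scales. The call was lost without Ctrl-2 (adjusted p = 0.0919), Ctrl-3 (0.10), LPS-1 (0.114) or LPS-3 (0.111), in DESeq2's test (0.0550), with no filter on low counts (0.0544) and in library 1 alone (0.127).

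APH1A, a scaffold subunit, was at 70.7, 69.7 and 66.7 CPM in Ctrl and at 76.7, 75.4 and 75.4 in LPS. These groups did not overlap. Its log2 fold change was 0.14 (SE 0.0382, edgeR adjusted p = 0.00728), and without Ctrl-3 it was 0.11 with an adjusted p of 0.0503. By library size alone it turned to −0.07 (adjusted p = 0.203), less negative than the −0.22 of the median gene, so APH1A rose relative to the median gene and not as a share of all UMIs.

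APH1B, the alternative scaffold, was at 20.6, 22.5 and 23.1 CPM in Ctrl and at 18.2, 19.5 and 21.7 in LPS, and the groups overlapped. Its log2 fold change was −0.16 with an edgeR adjusted p of 0.110, and −0.36 by library size alone (adjusted p = 0.000785). PSENEN, the activating subunit, was at 64.5, 70.7 and 70.7 CPM in Ctrl and at 72.9, 70.9 and 79.6 in LPS. LPS-2 lay only just above the highest Ctrl culture. The log2 fold change of PSENEN was 0.12 (adjusted p = 0.0741), turning to −0.09 (0.0988) by library size alone.

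PSEN2 was at 9.37, 11.4 and 10.2 CPM in Ctrl and at 7.41, 10.4 and 9.22 in LPS. Its groups overlapped, and its log2 fold change of −0.20 had a 95% interval from −0.51 to 0.12 (edgeR adjusted p = 0.268). By library size alone it was −0.40 (adjusted p = 0.0285). By overlap of CPM, NCSTN, APH1A and PSENEN were apart between LPS and Ctrl, 3 of 5 against 63.5% of all genes.

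Same-numbered cultures deviated together over the genes as a whole, and the fit with the culture number as a replicate block called 4 of the 5 genes in LPS against Ctrl, where it called 65.2% of all genes. APH1A (log2 fold change 0.14, adjusted p = 0.000638) and PSENEN (0.12, 0.00809) rose relative to TMM scaling, which by library size alone did not hold for either without the block, and NCSTN (−0.14, 0.00431) and APH1B (−0.16, 0.00700) fell. PSEN2 had −0.20 with an adjusted p of 0.0542. In each of the 3 same-numbered pairs, APH1A and PSENEN were higher and NCSTN, APH1B and PSEN2 lower in the LPS culture. Only PSENEN came close to 0 in a pair, at 0.0028 on the log2 scale. For this comparison as well, the share of all genes with the same direction in every pair was not measured. With single cultures left out, the APH1B call was lost without LPS-2 (adjusted p = 0.0576) and the PSENEN call without Ctrl-1 (0.0578).

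**Figure D2:**
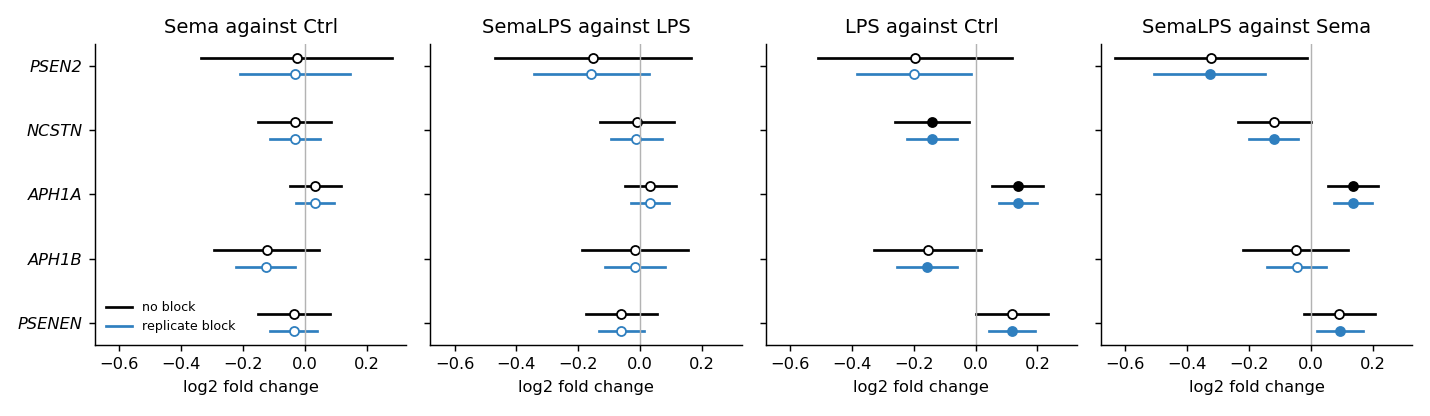
Log2 fold change (horizontal axis) with its 95% interval for the 5 genes in 4 comparisons, from edgeR without (black) and with (blue) the replicate block; filled points have an adjusted p under 0.05. All points of both inhibitor comparisons are open, and APH1A is filled in both LPS comparisons at 0.14 on the TMM scale (−0.07 and −0.08 by library size alone).

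In the presence of the inhibitor, SemaLPS against Sema shares no culture with LPS against Ctrl. Relative to TMM scaling and not by library size alone, APH1A rose here too, by 0.14 on the log2 scale (SE 0.0378, edgeR adjusted p = 0.0066), from 71.3, 72.6 and 68.0 CPM in Sema to 78.1, 79.2 and 75.5 in SemaLPS, with no overlap. It was the only gene of the 5 to pass, against 61.1% of all genes. The call was lost without Sema-3 (adjusted p = 0.0608), and by library size alone the value was −0.08 (0.175), where 2575 genes rose and 7246 fell rather than 4656 and 4544. PSEN2 had −0.32 (adjusted p = 0.0668), NCSTN −0.12 (0.0754), PSENEN 0.09 (0.149) and APH1B −0.05 (0.612). PSEN2 went from 8.70, 11.3 and 10.4 CPM in Sema to 6.82, 7.84 and 9.70 in SemaLPS, and its groups overlapped. Relative to library size PSEN2 stood at −0.53 (adjusted p = 0.00537), NCSTN at −0.33 (0.00012), APH1B at −0.26 (0.00702) and PSENEN at −0.12 (0.0337).

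The replicate block called 4 of the 5 genes in SemaLPS against Sema, against 67.8% of all genes. APH1A (0.14, adjusted p = 0.000503) and PSENEN (0.09, 0.0259) rose relative to TMM scaling, with both below 0 by library size alone without the block, while PSEN2 (−0.33, 0.00277) and NCSTN (−0.12, 0.00991) fell. APH1B had −0.05 (adjusted p = 0.381). The NCSTN call was lost without SemaLPS-1 (adjusted p = 0.0727), and that of PSENEN without Sema-1, Sema-3 or SemaLPS-1 (highest adjusted p = 0.125). By overlap of CPM, APH1A and PSENEN were apart between SemaLPS and Sema, 2 of 5 against 66.6% of all genes.

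APH1A and APH1B encode alternative subunits for the same place in the complex, so the share of APH1B among APH1 UMIs was followed as a ratio that no scaling between cultures can change. The share was 22.6%, 24.4% and 25.7% in Ctrl cultures 1 to 3 and 20.3%, 22.5% and 24.0% in Sema. It was 19.2%, 20.6% and 22.4% in LPS and 19.1%, 20.3% and 21.0% in SemaLPS. Each value rested on 2975 to 4733 UMIs, and the 95% Clopper-Pearson interval of Ctrl-1, for counting error only, reached from 21.1% to 24.1%. Every LPS culture lay below every Ctrl culture, though LPS-3 (22.35%) was close to Ctrl-1 (22.58%) and their intervals overlapped. How often the ratio of other genes was apart in this way was not measured, and 63.5% of all genes were apart in CPM between LPS and Ctrl. Culture 1 had the lowest share in all 4 conditions.

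The mean share was 24.2% ± 1.59 (SD, n = 3) in Ctrl and 20.7% ± 1.59 in LPS, a two-sided exact permutation p of 0.1, the smallest that 3 against 3 cultures allow. In library 2 alone the means were 23.2% and 19.9% and the groups overlapped (exact permutation p = 0.2). SemaLPS, at 20.1% ± 1.00, and Sema, at 22.3% ± 1.89, overlapped (exact permutation p = 0.3). Sema differed from Ctrl by −1.99 percentage points (exact permutation p = 0.2) and SemaLPS from LPS by −0.558 (exact permutation p = 0.6). Within same-numbered pairs the share was lower in Sema than in Ctrl in 3 of 3, with differences of −2.30, −1.95 and −1.70 points, and lower in LPS than in Ctrl in 3 of 3, with differences of −3.41, −3.83 and −3.39. SemaLPS minus LPS was −0.126, −0.226 and −1.32 points, and SemaLPS minus Sema −1.23, −2.10 and −3.01. An exact paired permutation test, added after seeing the data, gave 0.25 in each of the 4 comparisons, the smallest p that 3 pairs allow. Neither test could pass a threshold of 0.05.

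**Figure D3:**
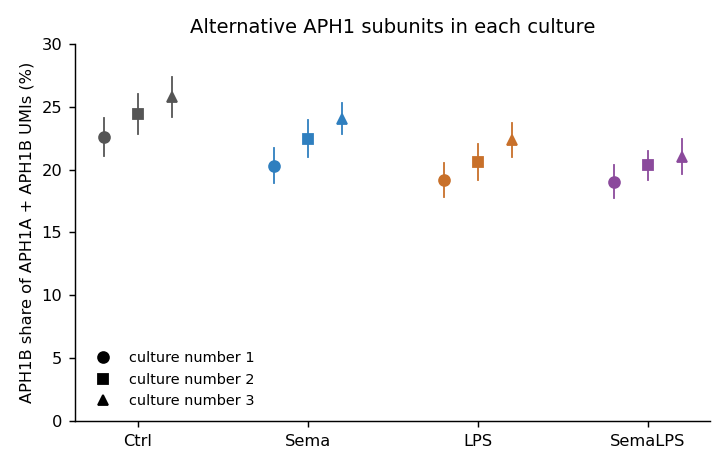
Share of APH1B in the sum of APH1A and APH1B UMIs (vertical axis, percent, from 0) in each culture by condition, with its 95% Clopper-Pearson interval as the line. The Ctrl cultures sit between 22.6% and 25.7% and the LPS cultures between 19.2% and 22.4%.

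Single cells carried few molecules of each gene: a mean of 2.21 UMIs for APH1A, 2.12 for PSENEN, 1.12 for NCSTN, 0.616 for APH1B and 0.282 for PSEN2. In 6.31% of cells all 5 genes were seen and in 1.66% none was. To compare shares of cells at equal depth, each cell was thinned to 10000 UMIs and shallower cells were left out: 79 in Ctrl, 95 in Sema, 87 in LPS and 140 in SemaLPS. No cell type known to lack these genes is among these cells, so the share that free RNA gives could not be measured.

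NCSTN was seen in 34.0% ± 0.911 of thinned Ctrl cells (SD, n = 3) and 27.9% ± 1.16 of LPS cells, and without thinning in 66.2% and 60.3%. APH1B was seen in 20.4% ± 0.868 and 16.6% ± 1.13, without thinning in 45.5% and 40.7%. PSEN2 was seen in 10.1% ± 1.01 and 7.56% ± 1.33, without thinning in 25.6% and 21.1%. For these 3 genes the thinned shares of the LPS cultures all lay below those of Ctrl, while 65% of all tested genes were apart in one direction or the other. APH1A (52.2% and 50.9%, without thinning 84.3% and 85.8%) and PSENEN (50.5% and 49.1%, without thinning 81.6% and 83.2%) overlapped. Since a thinned share is a share of all UMIs, it follows the library-size scale and not the TMM scale.

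The same 3 genes were apart in SemaLPS against Sema, with NCSTN at 27.3% ± 1.72 against 33.5% ± 0.760, APH1B at 16.3% ± 0.764 against 19.3% ± 1.24 and PSEN2 at 6.92% ± 0.833 against 9.96% ± 0.946, where 69.4% of all genes were apart. Without thinning, NCSTN was at 59.3% and 64.2%, APH1B at 39.9% and 43.5% and PSEN2 at 19.6% and 25.1%. No subunit gene was apart in Sema against Ctrl, against 12.7% of all genes, or in SemaLPS against LPS, against 9.01%.

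Clustering the cells gave 10 groups, which are numbered here and named by their leading genes, and the levels below are descriptions without a test because the same cells made the clusters. In this and the next paragraphs CPM is without TMM scaling. Ratios between groups of cells were not taken for all genes, so the value of a typical gene is not known. Clusters 6, 7 and 8 (1998 cells) were led by genes of the cell cycle, with at least 5 of 8 division markers more than 2-fold higher. PSEN2 averaged 0.505 times its level in the other cells of the same culture (SD 0.106 over 12 cultures, range 0.297 to 0.663), from 14 to 67 UMIs per culture in the dividing clusters. APH1B averaged 0.555 times (SD 0.079), NCSTN 0.802 (SD 0.062) and PSENEN 0.878 (SD 0.053). All 4 of these genes were lower in the dividing clusters in 12 of 12 cultures. What share of all genes was lower in this way was not measured, so this is not read as particular to them. APH1A averaged 1.07 times (SD 0.089) and was lower in 2 of 12. The dividing cells were deeper, with a median between 30201 and 39806 UMIs per culture against 26474 to 30637 in the rest.

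**Figure D4:**
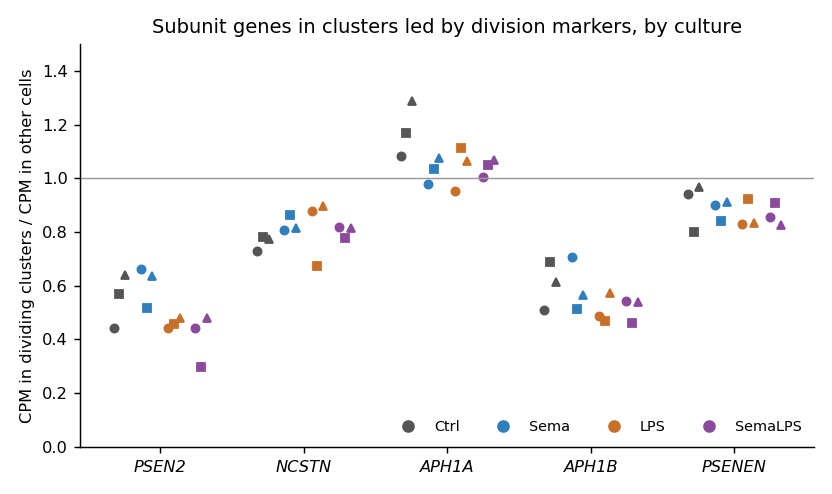
Ratio of CPM in the dividing clusters to CPM in the other cells of the same culture (vertical axis, from 0; the line marks 1) for the 5 genes, coloured by condition and with the culture number as the symbol (circle 1, square 2, triangle 3). PSEN2 and APH1B lie between 0.297 and 0.706 and APH1A between 0.953 and 1.29.

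The share of cells in the dividing clusters ran from 7.35% in LPS-2 to 22.9% in Sema-1 and was highest in culture 1 of every condition. PSEN2 and APH1B were lowest in culture 1 in 4 of 4 conditions. With the dividing clusters left out this held in 3 of 4 for each. The 8 division markers summed to 336 to 591 CPM in Ctrl, 477 to 590 in Sema, 224 to 318 in LPS and 292 to 425 in SemaLPS. The dividing share was higher with semagacestat in all same-numbered pairs, by 2.94, 6.64 and 3.48 percentage points without LPS and by 4.37, 2.15 and 1.88 with it. With the dividing clusters left out, no subunit gene passed in either inhibitor comparison, and APH1B had −0.09 in Sema against Ctrl (edgeR adjusted p = 0.849) and PSEN2 −0.01 (0.996). Of 14786 tested genes, 0 passed there in Sema against Ctrl and 6 in SemaLPS against LPS. On the non-dividing cells, LPS against Ctrl gave −0.20 for NCSTN (edgeR adjusted p = 0.00278), −0.20 for APH1B (0.0231) and 0.14 for APH1A (0.0121). These 3 of 5 genes passed where 8814 of 14786 tested genes did. SemaLPS against Sema then gave −0.35 for PSEN2 (adjusted p = 0.0262), −0.16 for NCSTN (0.0108) and 0.11 for APH1A (0.0385), where 9188 of 14786 tested genes passed.

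Among cells with LPS, clusters 0 and 2 were the largest. Cluster 0 (3585 cells) was led by CCL8, CCL13 and CXCL10, chemokine genes, and cluster 2 (2988 cells) by CCR7, CCL1 and IL12B, a chemokine receptor, a chemokine and a cytokine subunit. PSEN2 lay between 4.59 and 6.53 CPM in cluster 0 and between 9.67 and 12.5 in cluster 2. It was higher in cluster 2 in all 6 LPS-treated cultures, by a mean of 1.97 times (SD 0.213), with at least 75 UMIs behind each value. APH1A was lower in cluster 2 in all 6, at 0.892 times (SD 0.030), and PSENEN in 5 of 6, at 0.938 (SD 0.042). NCSTN (0.998, SD 0.080) and APH1B (1.01, SD 0.133) had no common direction.

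Among cells without LPS, clusters 3 and 4 were the largest. Cluster 3 (1945 cells) was led by FABP4, a lipid carrier gene, with RGCC and SPOCD1, and cluster 4 (4057 cells) by GIMAP6, IGF1, a growth factor gene, and CYSLTR1, a leukotriene receptor gene. Of these 4 clusters PSEN2 was highest in cluster 3, where no culture was below 13.5 CPM, and lay between 9.05 and 11.1 in cluster 4. The ratio of cluster 4 to cluster 3 was 0.651 (SD 0.058) for PSEN2 and 0.892 (SD 0.023) for APH1B, below 1 in 6 of 6 cultures for each. It was above 1 in 6 of 6 cultures for APH1A (1.21, SD 0.047) and PSENEN (1.149, SD 0.056), and 0.966 (SD 0.035) for NCSTN. For the inhibitor, PSEN2 averaged 15.1 CPM in Ctrl and 15.7 in Sema in cluster 3, and 5.79 in LPS and 5.47 in SemaLPS in cluster 0. In the dividing cluster 8 (1013 cells), APH1A lay between 81.3 and 86.9 CPM in Ctrl and between 73.5 and 76.1 in Sema, and NCSTN between 29.7 and 33.8 in Ctrl and between 34.5 and 36.9 in Sema, with no overlap for either. These are the cluster's own cells and were not tested. APH1A and NCSTN were named here because they were apart. In clusters 0, 2, 3 and 4 every subunit gene overlapped between cultures with and without the inhibitor at the same LPS level. The share of all genes apart within this cluster was not measured. In whole cultures 13.4% of all genes were apart between Sema and Ctrl, and neither APH1A nor NCSTN was.

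**Figure D5:**
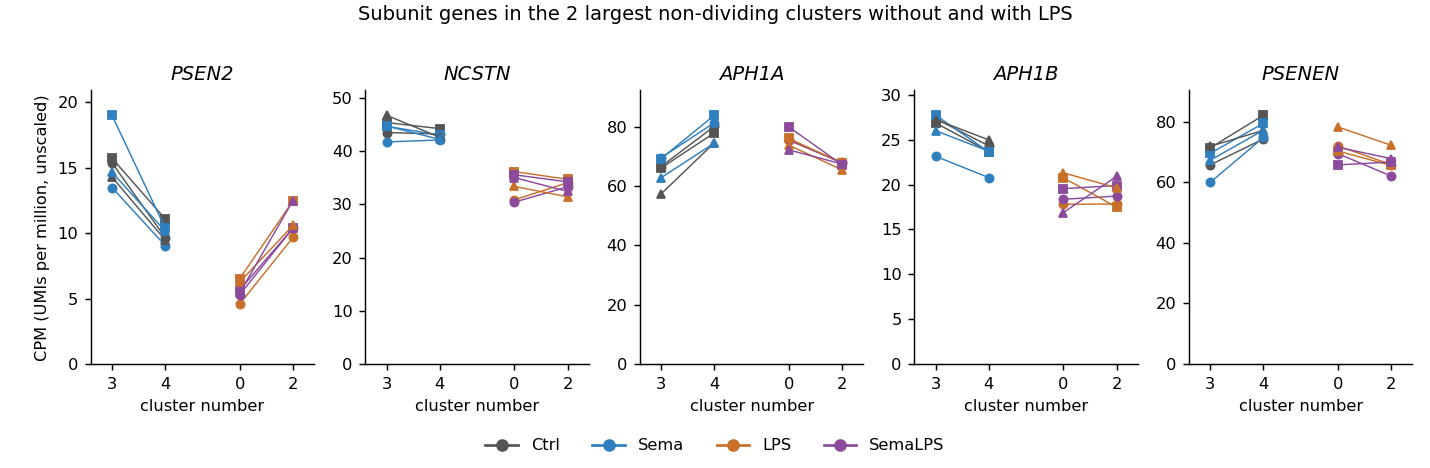
CPM without TMM scaling of the 5 genes (1 panel each, axis from 0) in the 2 largest non-dividing clusters without LPS (3 and 4) and with LPS (0 and 2), with lines that join the values of a culture and the culture number as the symbol (circle 1, square 2, triangle 3). PSEN2 drops from cluster 3 to cluster 4 and climbs from cluster 0 to cluster 2 in every culture, and APH1A goes the other way.

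Cluster 5 (162 cells, 97.5% of them LPS-treated), was led by CCL18 and HP. In the 4 cultures with at least 20 of its cells, PSEN2 averaged 16.2 CPM (SD 6.61, 80 UMIs in all), APH1B 31.2 (SD 3.27) and APH1A 52.2 (SD 11.8). Clusters 1 and 9 (66 and 39 cells) had median depths of 5193 and 6530 UMIs and were left unnamed.

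Genes whose TMM-scaled log2 CPM followed each subunit most closely over the 12 cultures were taken from tested genes with a mean of at least 20 CPM, as a description. The cultures share a stimulus and a culture number, which any such correlation contains. For PSEN2 they were MATK (Pearson r 0.926), LIPA (0.919) and ITPRIPL2 (0.910). For NCSTN they were CITED2 (0.971), GPNMB (0.961) and SCARB2 (0.960), the last a lysosomal membrane protein gene. CARNMT1 (0.972), HSD17B12 (0.968) and ACLY (0.967) followed APH1A. IGF2R (0.947), ELMOD2 (0.922) and MOSPD1 (0.920) followed APH1B, and ADIPOR1 (0.939), RCAN1 (0.935) and CD63 (0.933) followed PSENEN.

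Other genes of the pathway were described as lists, whose counts are read against the 59.2% of all genes that passed in LPS against Ctrl. Of 9 assembly factors and modulators, 4 rose, 3 fell and 2 did not pass, with a median log2 fold change of 0.17 against −0.02 for all genes. GSAP, the γ-secretase activating protein gene, went from 8.27 ± 1.13 CPM (SD, n = 3) to 43.2 ± 0.398 (2.38, edgeR adjusted p = 2.00e-11). PLD1, a phospholipase gene, fell by 1.47 and ARRB2, a β-arrestin gene, fell by 0.57 on the log2 scale. By library size alone 2 rose, 3 fell and the median was −0.03, with these 3 genes in the same direction.

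Of the 5 related intramembrane aspartyl proteases, 4 were tested and SPPL2C was at 0 in all cultures. SPPL2A, which cuts type II membrane proteins in endosomes and lysosomes, rose from 117 ± 7.23 to 175 ± 3.91 CPM (0.58, edgeR adjusted p = 4.86e-08). HM13, the signal peptide peptidase gene, fell by 0.42 and SPPL3 fell by 0.26 on the log2 scale. Their list had a median of −0.19, and all 3 kept their direction by library size alone.

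Sheddases cut off the ectodomains that γ-secretase substrates must lose first, and the RHBDF escorts, which are inactive as proteases, carry ADAM17 to its place of action. Of the 6 genes, 2 rose, 2 fell and 2 did not pass in LPS against Ctrl, with a median of 0.16. ADAM17 rose by 0.64 (edgeR adjusted p = 4.14e-05), from 68.9 ± 8.06 to 108 ± 6.96 CPM, as did RHBDF2, the escort of ADAM17, by 0.42. BACE1, the β-secretase gene, fell by 0.64. Relative to library size 2 rose and 3 fell, with a median of −0.05, and these 3 genes kept their direction.

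Of 24 substrate genes, 20 were tested, 6 rose, 8 fell and 6 did not pass, with a median of −0.08. On the library-size scale 4 rose, 11 fell and the median was −0.29. CD44, an adhesion receptor gene, rose by 2.15 (133 ± 13.4 to 590.0 ± 14.9 CPM). CSF1R, the receptor for the microglial survival factor, fell by 0.93 and NOTCH1 fell by 1.1 on the log2 scale. The other Notch receptor genes of the list, named after their values were seen, rose: NOTCH2 by 0.77 (19.6 ± 1.22 to 33.6 ± 2.19 CPM) and NOTCH3, at under 1 CPM in every culture, by 2.24. Of 9 Notch target genes, 7 were tested and 6 rose, among them DTX4 (2.99), HES4 (2.12) and LFNG (0.83), with a median of 1.08, and by library size alone 6 rose as well.

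The counts were similar in SemaLPS against Sema, read against 61.1% of all genes. Of the assembly factors and modulators 4 rose and 3 fell, of the proteases 1 rose and 3 fell, of the sheddases 2 rose and 2 fell, of the substrates 8 rose and 10 fell and of the Notch targets 5 rose and none fell. GSAP rose by 2.42, DTX4 by 2.99 and CD44 by 2.18 on the log2 scale. On the library-size scale 1 assembly gene rose and 3 fell, and 5 substrates rose and 11 fell. HES1 was at 2.89 ± 0.188 CPM in LPS and 1.42 ± 0.168 in SemaLPS (SD, n = 3, log2 fold change −1.02, edgeR adjusted p = 0.0342). In Sema against Ctrl no tested gene of the other 4 lists passed, and HES1 was the 1 Notch target that did. With the culture number as a block, edgeR also called TREM2 in SemaLPS against LPS (−0.18, adjusted p = 0.0072). For the average inhibitor effect the block called TREM2 (−0.10, 0.0108), NOTCH2 (0.12, 0.0379), LFNG (−0.20, 0.0378) and HM13 (−0.075, 0.0416) besides HES1. The block called 2.07% and 6.99% of all genes in these, and without it only HES1 of the lists passed.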

How the data were processed

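Per the labels' protocols, cells of 12 hashtagged cultures were pooled and run as 2 droplet libraries with 3′ counting. The authors deposited raw UMI counts per gene and per hashtag antibody, made with Cell Ranger 6.0.1 per the file headers, and the submitters' processing notes name Cell Ranger 3.0.2, Seurat 4.1.1 and hg38. No source used here states how strand was treated.

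Of 28943 barcodes, 21635 carried 1 hashtag, 6837 carried several (23.6%, removed as doublets) and 471 none. Hashtags were called by k-means on centred log ratios with negative binomial thresholds. Cells were kept from 1000 detected genes and up to 10% mitochondrial counts, and their counts were summed per culture. The quasi-likelihood test of edgeR 4.0.16 (R 4.3.3, limma 3.58.1) was fitted to all 12 cultures with TMM scaling and its default filter on low counts, with Benjamini-Hochberg adjustment over 15057 genes and a threshold of 0.05. DESeq2 1.42.0 was an alternative, as were other filters, single libraries, left-out cultures and the culture number as a block. Clusters came from scanpy 1.11.5 (Leiden, resolution 0.5). Scripts were tested on simulated data.

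Same-numbered cultures of different conditions deviated together: all 18 pairs had correlations between 0.446 and 0.744 over 5278 genes, against −0.563 to 0.168 for other pairs, so the pairing comes from the data and not from a label that names its source. Since all cultures are of 1 cell line, p-values reflect only their own spread, which may be partly technical. Intervals on shares cover counting error only. The members and lists were chosen with earlier results of these data known. List genes are named where they passed, up to 3 per list and comparison by lowest adjusted p, and the genes most like a subunit are the 3 with the highest Pearson r among tested genes with at least 20 CPM.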

Additional observations from a re-analysis of the deposited data

How the results depend on the processing

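With the culture number as a replicate block, 4 subunit genes passed in LPS against Ctrl rather than 2 and 4 in SemaLPS against Sema rather than 1, and no inhibitor call changed for them. The block called 65.2% and 67.8% of all genes in these LPS comparisons. The LPS against Ctrl count was 1 with no filter on low counts, 1 in library 1 alone and 1 in DESeq2's Wald test. Of all genes, 8837 of 26038, 7316 of 13568 and 8127 of 15057 passed under these. That count was 3 without the dividing clusters (8814 of 14786 genes) and 3 by library size alone (9474 of 15057). By library size alone the 3 were NCSTN, APH1B and PSEN2, and all fell. The SemaLPS against Sema count was 2 with no filter, 3 in library 1 alone, 2 with hashtags called by ratio, 2 with up to 20% mitochondrial counts, 3 without the dividing clusters, 2 without the cultures numbered 1 and 4 by library size alone. Of all genes, 9169 of 26038 passed with no filter, 7698 of 13568 in library 1 alone and 9413 of 15326 with hashtags by ratio. With up to 20% mitochondrial counts 9699 of 15560 passed, and without the dividing clusters 9188 of 14786. Without the cultures numbered 1 the count was 8306 of 15156, and by library size alone 9821 of 15057. The last 2 alternatives, the paired APH1B share and the block with cultures left out were chosen after seeing the data. Leaving out 1 culture gave 0 to 3 in both LPS comparisons, and 2 to 4 in SemaLPS against Sema with the block. Calls over all genes then ran from 8170 to 8976 in LPS against Ctrl. In SemaLPS against Sema they ran from 8427 to 9321, and from 9354 to 10308 with the block.

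By library size alone APH1A turned to −0.072 and PSENEN to −0.090 in LPS against Ctrl, and to −0.075 and −0.12 in SemaLPS against Sema. The other reversals were of values near 0 that never passed. In Sema against Ctrl these were PSEN2 at 0.0028 without the cultures numbered 1, NCSTN at 0.016 in library 1 and PSENEN at 0.017 in library 2. In SemaLPS against LPS, NCSTN was 0.035 in library 2, 0.0057 without the dividing clusters and 0.031 without the cultures numbered 1, and APH1B was 0.0090 without the dividing clusters. The interaction of NCSTN was −0.080 in library 1 and −0.0088 with hashtags called by ratio. That of APH1A was −0.00052 with the replicate block, −0.010 in library 1, −0.019 with hashtags called by ratio, −0.00051 with at least 500 genes per cell, −0.031 without the dividing clusters, −0.0054 without the cultures numbered 1 and −0.0036 by library size alone. The causes were not tested.

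Over single left-out cultures, PSEN2 ran from −0.11 to 0.067 in Sema against Ctrl, and in SemaLPS against LPS NCSTN ran from −0.041 to 0.043 and APH1B from −0.075 to 0.055. The interaction ran from −0.011 to 0.076 for NCSTN, −0.032 to 0.022 for APH1A and −0.059 to 0.026 for PSENEN, the average inhibitor effect of NCSTN from −0.039 to 0.0053 and the SemaLPS against LPS difference in the APH1B share from −1.32 to 0.267 percentage points. Calls over all genes rose from 2 to 15 (DESeq2), 28 (no filter) and 515 (block) in Sema against Ctrl, from 2 to 10, 11 and 312 in SemaLPS against LPS, and from 8 to 45, 108 and 1053 for the average inhibitor effect. The interaction had 0, and 1, 1 and 10 under the same alternatives. PSEN2 had the fewest UMIs, 4188 in all. Its SD over the 3 cultures was 10.1% of the mean in Ctrl, 13.2% in Sema, 16.8% in LPS and 18.0% in SemaLPS. Counting error alone would give 5.44%, 5.00%, 5.64% and 5.61%. The source of the remaining spread was not tested.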
